A study of Homo sapiens with 6 samples.

Results

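The mitochondrial ribosome and the proteins that copy, process and maintain mitochondrial nucleic acids are encoded by genes of the nucleus. The genes described here were chosen by name from the table of counts: every symbol made of MRPL or MRPS, a number and at most 1 further letter, which stand for the large and small subunit proteins of the mitochondrial ribosome, and 26 named factors. The rule found 104 genes among the 58051 genes of the table. They were 49 large subunit genes, 29 small subunit genes, 6 genes of mitochondrial transcription, 2 of ribosomal RNA methylation and ribosome assembly, 12 of RNA stability, processing and decay, 2 of mitochondrial DNA replication and 4 nuclear regulators. All 104 passed the filter on low counts and were tested, with between 164 and 26433 counts per gene and library.

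RNA was sequenced from HEK293T cells, an established line of human embryonic kidney origin with the SV40 T antigen, 48 hours after transient transfection. One group (3 libraries) received pcDNA3.1-, an empty expression vector. The other (3 libraries) received pcDNA3.1-ppk1+, the same vector with ppk1, a gene for the bacterial enzyme that joins phosphate groups into polyphosphate. Libraries were lettered B, C and D in both groups, and the design text of the series describes those of 1 letter as matched biological replicates. Both groups thus share the vector, the transfection and the large T antigen, and only the ppk1 insert differs by the labels. The protocol also names an HA-tagged ppk1 plasmid and gives the plasmid dose as a range without tying either to a library, and the ppk1 transcript was not analysed here. A transfected culture mixes cells that took up plasmid with cells that did not, so in these bulk samples fewer responding cells and a smaller response per cell cannot be told apart.

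Library totals lay between 40851783 and 67122986 counts. Genes that HEK293T cells are known to express (VIM, KRT8, KRT18, NEFM, NEFL and PAX2) summed to between 735 and 887 CPM (counts scaled to library size and multiplied by 1e6) in every library. VIM made up most of that sum (478 to 538 CPM), and PAX2 was lowest at 2.55 to 3.64 CPM. Markers of blood, endothelium, liver, fibroblast, red cell and muscle (7 genes) summed to between 16.5 and 21.4 CPM. Nearly all of it was COL1A1 (15.4 to 20.6 CPM), which was as high as KRT8 (16.3 to 20.7 CPM). PTPRC, CD3E, HBB and MYH7 had at most 4 counts in any library.

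Mitochondria carry a small circular genome that encodes proteins of the respiratory chain, together with the ribosomal and transfer RNAs needed to translate them. It is copied by the polymerase POLG with the helicase TWNK, and transcribed by POLRMT with TFAM and TFB2M into long precursor RNAs that are cut, polyadenylated and translated inside the organelle. The coactivator PGC-1 alpha (gene PPARGC1A), its relative PPRC1 and the transcription factors NRF1 and GABPA are known to act on the nuclear genes for this machinery.

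Of the 104 genes, 4 differed between the groups at a Benjamini-Hochberg adjusted p below 0.05 in edgeR's quasi-likelihood test with the replicate letter as a block, against 9.08% of the 19574 genes tested. The genes that rose with ppk1 were MRPL23, TWNK and MRPS6 (4.04% of all tested genes were called higher), each by less than 1.3-fold. The gene that fell was PPARGC1A (5.04% of all tested genes were called lower). The share among the members was 3.85%, and no role had more than 1 called gene. None of the 4 was called without the block (0.455% of tested genes called higher and 1.95% lower), by DESeq2 with the replicate letter (2.11% and 2.7%), or when the libraries of pair C were left out (0.415% and 1.64%).

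Most members nevertheless had a small positive difference. The log2 fold change was above 0 for 87 of 104 and below 0 for 17, where 53.1% of all tested genes and 57.6% of genes averaging 200 counts or more lay above 0. The median log2 fold change was 0.086 over the members, 0.015 over all tested genes and 0.029 over those averaging 200 counts or more. Without pair C the member median was 0.041, with 73 members above 0, and without pair D it was 0.13, with 90 above 0. At an unadjusted p below 0.05, 27 members were higher (12.2% of all tested genes) and 1 was lower (11.6%). In 38 members the ppk1 library was the higher one in all 3 pairs (22.6% of all tested genes), and in 3 it was the lower one in all pairs (21.1%). In 18 members every ppk1 library lay above every empty vector library (13.0% of all tested genes), and in MRPS30 and PPARGC1A every ppk1 library lay below (12.6%).

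In the fit with the block the intervals of these differences were narrow. The 95% interval of the fold change lay within 1.5-fold in either direction for 103 of the 104 genes, and reached a median of 0.15 on the log2 scale to either side of the estimate. The exception was PPARGC1A, the member with the lowest counts. Of the 49.5 degrees of freedom behind each interval, 47.5 came from variability pooled over genes. The width thus does not measure the spread of a gene's own pairs. For MRPL1, named after its values were seen, the interval was -0.056 to 0.30, with pair differences of 0.34, 0.35 and -0.32.

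The pairs did not behave alike. The median member difference was 0.12 on the log2 scale in pair B, 0.18 in pair C and -0.033 in pair D, with 93, 95 and 43 members above 0. Together the members held 0.668%, 0.690% and 0.733% of all counts in empty vector libraries B, C and D, and 0.691%, 0.718% and 0.714% in the ppk1 libraries. The share was thus higher with ppk1 by 0.0236 percentage points in B and 0.0279 in C, and the difference was -0.0188 in D. The means were 0.697% ± 0.033 and 0.708% ± 0.014 (SD, n = 3 libraries each), so the groups overlapped.

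The large subunit, which joins amino acids into the chain, had 1 called gene, MRPL23 (ENSG00000214026, chromosome 11). MRPL23 stood at 15.9, 17.2 and 19.1 CPM in empty vector libraries B, C and D, and at 18.7, 24.0 and 21.4 CPM with ppk1. Its ppk1 library was the higher in every pair, but the lowest ppk1 value lay below the highest empty vector value. The log2 fold change was 0.30 (SE 0.085, adjusted p = 0.0183 in edgeR), from pair differences of 0.24, 0.48 and 0.16. Without the block the adjusted p was 0.153, and without pair C the log2 fold change was 0.20 (adjusted p = 0.656). Exons of MRPL23 overlap MRPL23-AS1 on the opposite strand. The strand setting of the counting is not given in the sources used here, so reads of the overlap may be shared.

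**Figure D1:**
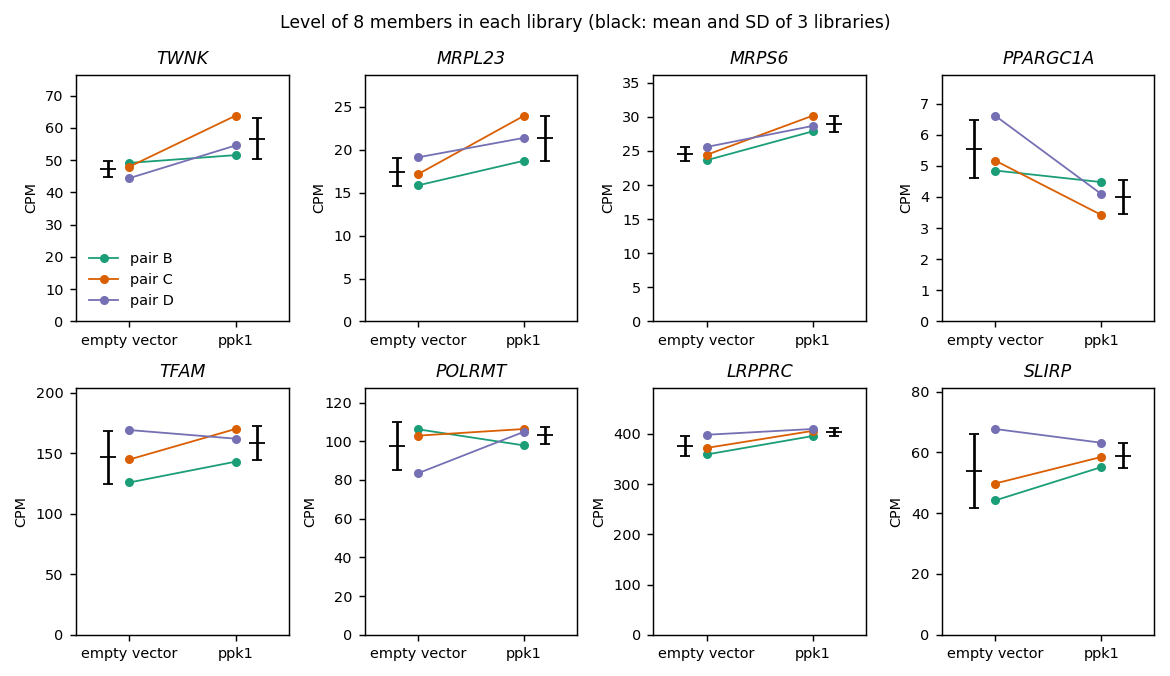
Level of 8 genes in CPM (vertical axis, from 0) in each empty vector and ppk1 library, with lines joining libraries of the same letter and black bars for the mean and SD of 3 libraries. MRPL23 and MRPS6 are higher with ppk1 in each pair by 0.16 to 0.48 on the log2 scale, PPARGC1A is lower in each pair, and the lines of POLRMT cross because it differs by -0.12 in pair B and 0.33 in pair D.

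Over the 49 large subunit genes the median log2 fold change was 0.10, and 43 lay above 0. At an unadjusted p below 0.05, 16 were higher and 0 lower (12.2% and 11.6% of all tested genes), and 21 were higher in all 3 pairs (22.6%). MRPL53 had the next largest value, 0.24 (SE 0.099, adjusted p = 0.121), from 8.62 ± 0.77 to 10.2 ± 1.5 CPM (SD, n = 3 libraries each). Exons of MRPL53 overlap CCDC142 on the same strand. Other genes, foremost CCDC142, share 50.2% of the MRPL53 sequence, so this value is uncertain. Closest to the threshold were MRPL4 and MRPL51 (adjusted p = 0.0524 for both), MRPL54 (0.0540) and MRPL28 (0.0641), 4 genes picked out after their values were seen. Their log2 fold changes lay between 0.21 and 0.23. MRPL28 overlaps TMEM8A on the same strand and shares 10.6% of its sequence with other genes, so its value is uncertain.

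The lowest values of the large subunit were those of MRPL50 and MRPL32. MRPL50 was at 37.3, 40.6 and 54.9 CPM with the empty vector and 40.7, 37.6 and 41.7 CPM with ppk1, and empty vector library D stood well above the other 5. Its log2 fold change was -0.13 (SE 0.081, adjusted p = 0.355), with pair differences of 0.13, -0.11 and -0.40. MRPL32, at -0.11 (SE 0.078, adjusted p = 0.418), had its highest value in the same library, 77.7 CPM against 55.6 to 62.5 CPM in the others. MRPL1, named after its values were seen, spread most between pairs, at 0.34, 0.35 and -0.32.

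In the small subunit, which holds the messenger RNA and reads its codons, the called gene was MRPS6 (ENSG00000243927, chromosome 21). It stood at 23.6, 24.4 and 25.6 CPM with the empty vector and 27.9, 30.2 and 28.7 CPM with ppk1, so the groups did not overlap. The log2 fold change was 0.24 (SE 0.078, adjusted p = 0.0465 in edgeR), with pair differences of 0.24, 0.30 and 0.16. Its adjusted p ranged from 0.00807 with GC and transcript length offsets in the fit to 0.640 without pair C, while the log2 fold change stayed between 0.20 and 0.25. MRPS6 overlaps SLC5A3 and AP000317.2 on the same strand and shares 29.3% of its sequence with other genes, foremost AP000317.2. Reads of these genes may therefore be divided among them.

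The 29 small subunit genes had a median log2 fold change of 0.077, and 24 were above 0. At an unadjusted p below 0.05, 6 were higher and 0 lower (12.2% and 11.6% of all tested genes). MRPS12, a protein of the decoding centre, had the second value, 0.22 (SE 0.078, adjusted p = 0.0669), with pair differences of 0.15, 0.45 and 0.06. MRPS17, at 0.20 (SE 0.091, adjusted p = 0.169), shares 31.8% of its sequence with other genes, foremost an overlapping one. The lowest were MRPS14 at -0.11 (SE 0.077, adjusted p = 0.430) and MRPS31 at -0.096 (SE 0.078, adjusted p = 0.483). In MRPS14 and MRPS31, as in MRPL50, pair D was the lowest of the 3, at -0.29 and -0.31. MRPS36 carries a small subunit symbol but is also known as a component of the 2-oxoglutarate dehydrogenase complex, and its log2 fold change was 0.11 (SE 0.083, adjusted p = 0.463).

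**Figure D2:**
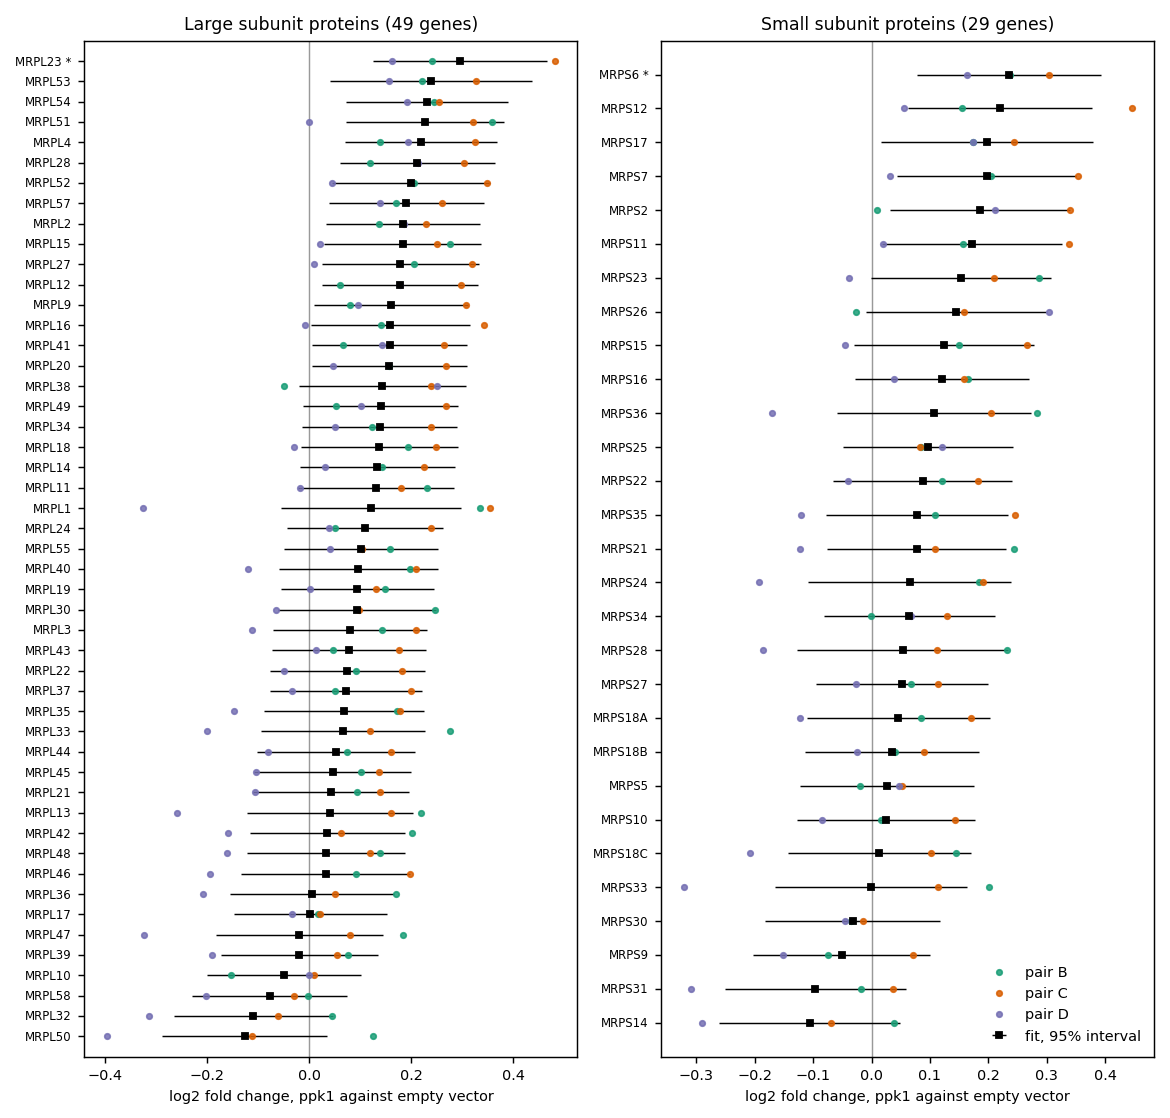
Log2 fold change of ppk1 against empty vector (horizontal axis) for each of the 49 large subunit (left) and 29 small subunit genes (right), with the fitted value and its 95% interval in black, the difference of each pair in colour and an asterisk on genes called at an adjusted p below 0.05. Most black squares lie right of 0 (43 of 49 and 24 of 29), and pair D (violet) lies left of the other pairs for many genes.

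Of the 6 transcription genes, none was called, and 1 was higher at an unadjusted p below 0.05 (12.2% of all tested genes). TFAM, which packages mitochondrial DNA and opens its promoters, stood at 126, 145 and 169 CPM with the empty vector and 143, 170 and 162 CPM with ppk1. The groups overlapped widely, and its log2 fold change was 0.12 (SE 0.075, 95% interval -0.032 to 0.27, adjusted p = 0.349). With GC and length offsets TFAM was called, at 0.19 (adjusted p = 0.0123). POLRMT, the RNA polymerase, had pair differences of -0.12, 0.05 and 0.33 around a log2 fold change of 0.085 (SE 0.078, adjusted p = 0.550). It shares 31.0% of its sequence with other genes, foremost the pseudogene POLRMTP1, so its value is uncertain.

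TFB2M, which helps the polymerase melt the promoter, had the largest value of this role, 0.19 (SE 0.084, adjusted p = 0.143). It was higher in all 3 pairs, by 0.23, 0.25 and 0.09, and was called with the GC and length offsets (adjusted p = 0.0109). TEFM, the elongation factor, had the lowest, at -0.050 (SE 0.088, adjusted p = 0.780). The terminator family gene MTERF3 lay at 0.044 (SE 0.077). TFB1M, the methyltransferase of small ribosomal RNA, was at -0.022 (SE 0.077) and MTERF4, which recruits a methyltransferase to the large subunit, at 0.047 (SE 0.075), both named after their values were seen.

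Among the 12 genes of RNA stability, processing and decay none was called, and the median log2 fold change was 0.062. At an unadjusted p below 0.05, 2 were higher (12.2% of all tested genes). LRPPRC and SLIRP form a complex that stabilises mitochondrial messenger RNAs. LRPPRC was at 359, 372 and 398 CPM with the empty vector and 396, 406 and 410 CPM with ppk1, with only the lowest ppk1 library below the highest empty vector library. Its log2 fold change was 0.10 (SE 0.074, adjusted p = 0.422). SLIRP ranged from 44.2 to 67.7 CPM with the empty vector and from 55.1 to 63.2 CPM with ppk1. Its log2 fold change was 0.15 (SE 0.079, adjusted p = 0.240), with pair differences of 0.32, 0.23 and -0.10. LRPPRC was called with the GC and length offsets (0.16, adjusted p = 0.0428) and SLIRP without pair D (0.26, adjusted p = 0.0237).

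FASTK and ELAC2 had the largest values of the role. FASTK, whose mitochondrial form acts on ND6 messenger RNA, was at 124, 121 and 113 CPM with the empty vector and 129, 140 and 140 CPM with ppk1. The groups did not overlap, at a log2 fold change of 0.19 (SE 0.074, adjusted p = 0.101). ELAC2, the nuclease that cuts the 3′ end of transfer RNAs, was at 0.17 (SE 0.073, adjusted p = 0.149), also without overlap. The lowest were the poly(A) polymerase MTPAP, at -0.060 (SE 0.076), and FASTKD3, at -0.013 (SE 0.087). The degradosome proteins PNPT1 and SUPV3L1 lay at 0.081 (SE 0.076) and 0.019 (SE 0.077), and the RNA granule protein GRSF1 at 0.089 (SE 0.074). The adjusted p-values of these 5 lay between 0.499 and 0.951.

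Of the DNA replication genes, TWNK (ENSG00000107815, chromosome 10) was called. It stood at 49.2, 48.0 and 44.4 CPM with the empty vector and 51.6, 63.8 and 54.6 CPM with ppk1, and the groups did not overlap. The log2 fold change was 0.26 (SE 0.078, adjusted p = 0.0254 in edgeR), from pair differences of 0.07, 0.41 and 0.30. It was 0.18 (adjusted p = 0.682) without pair C and 0.22 (adjusted p = 0.0663) without pair D. POLG was higher in all pairs without overlap, by 0.01, 0.11 and 0.30, and had a log2 fold change of 0.14 (SE 0.075, adjusted p = 0.240).

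TWNK lies head to head with another member, MRPL43, with 148 bases between the annotated gene starts, and their exons overlap on opposite strands. MRPL43 had a log2 fold change of 0.079 (SE 0.075, adjusted p = 0.568), and its pair differences of 0.05, 0.18 and 0.01 were each smaller than those of TWNK. Whether the counting used the strand is not given in the sources used here, so reads of the overlap may be shared between TWNK and MRPL43. Other members also had such a partner. A protein-coding gene on the opposite strand started within 500 bases for 29 of 104 (27.9%), against 10.5% of the 19737 protein-coding genes of the table. MRPL46 and MRPS11, with 34 bases between their starts, were the other pair in which both genes are members.

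Of the 4 nuclear regulators, PPARGC1A (ENSG00000109819, chromosome 4) was called. It was the member with the fewest counts, with 256, 229 and 270 counts in empty vector libraries B, C and D and 299, 164 and 171 with ppk1. In CPM these were 4.85, 5.17 and 6.61 against 4.48, 3.42 and 4.09, so the groups did not overlap. The log2 fold change was -0.45 (SE 0.12, 95% interval -0.70 to -0.20, adjusted p = 0.0135 in edgeR), a ratio of 0.730. Pairs C and D carried it, at -0.59 and -0.69, with -0.11 in pair B. The adjusted p was 0.118 without the block, 0.134 with DESeq2, 0.281 without pair C and 0.0873 without pair D.

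The other regulators were not called. PPRC1, a relative of PGC-1 alpha, was at 0.15 (SE 0.074, adjusted p = 0.194), higher in all 3 pairs by 0.02, 0.22 and 0.22. NRF1 was at 0.12 (SE 0.080, adjusted p = 0.373), with 22.8 to 24.2 CPM in the empty vector libraries and 24.6 to 26.6 CPM in the ppk1 libraries, which did not overlap. GABPA, the DNA-binding subunit of the factor also called NRF-2, was at -0.040 (SE 0.075, adjusted p = 0.797). Other genes, foremost a pseudogene, share 16.1% of the GABPA sequence.

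**Figure D3:**
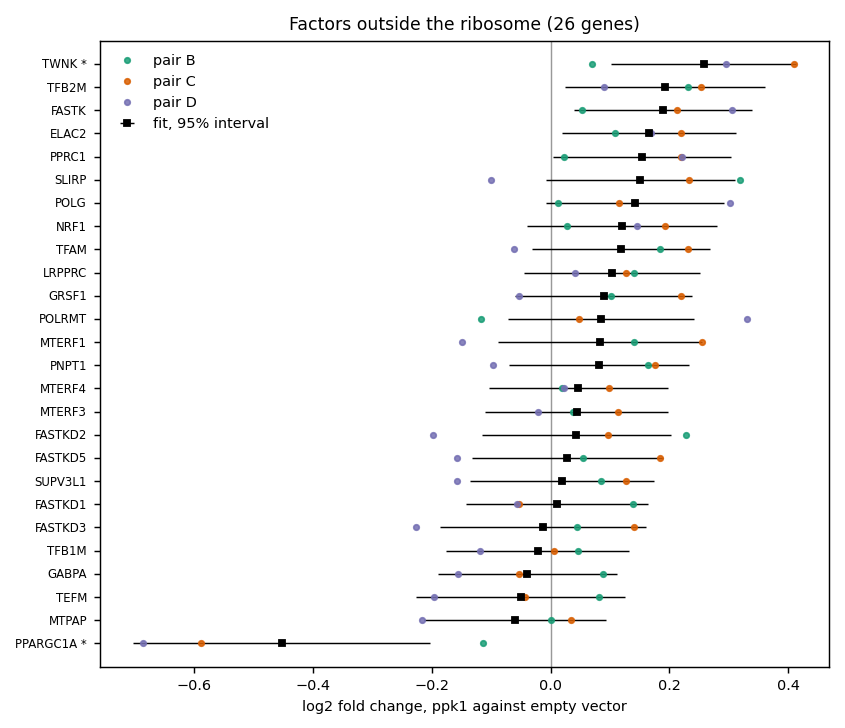
Log2 fold change of ppk1 against empty vector (horizontal axis) for the 26 factors outside the ribosome, with the fitted value and its 95% interval in black and the difference of each pair in colour; an asterisk marks called genes. TWNK is at the top (0.26), PPARGC1A stands apart at the bottom (-0.45), and the intervals of most other factors include 0.

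Members of the same machine differed widely in transcript level. Per kilobase of the principal annotated transcript, empty vector levels of large subunit genes ran from 7.42 ± 0.66 CPM (MRPL53) to 152 ± 3.9 CPM (MRPL37; SD, n = 3 libraries), a range of 20.5-fold with a median of 41.8. Over the 37 genes with no same-strand overlap and at most 5% shared sequence, the range was 12.1-fold, from MRPL22 at 12.6. MRPL37 stood apart, with the next genes, MRPL3 and MRPL20, both at 100 CPM per kilobase. Small subunit genes ran from 6.45 ± 0.48 (MRPS17) to 127 ± 2.9 (MRPS34), a range of 19.6-fold around a median of 35.1. Over the 21 genes left by the same limits, the range was 10.4-fold, from MRPS23 at 12.2. The length used for MRPS23 is 5621 bases, against a median of 580 over its coding transcripts. Its level per kilobase and this range are therefore uncertain. Neighbours in these orders were mostly indistinguishable, since the libraries of 45 of 48 neighbouring pairs of the large subunit and 21 of 28 of the small subunit overlapped.

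None of these 4 extreme genes was called. MRPL37 had a log2 fold change of 0.073 (SE 0.074) and MRPS34 of 0.065 (SE 0.073). The length used for MRPL42 is that of an unusually long model (15582 bases), so its low level per kilobase, 8.38, is uncertain.

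Outside the ribosome, SLIRP had the highest level per kilobase of the RNA factors, 132 ± 30.1 CPM, and its partner LRPPRC 59.4 ± 3.2 (SD, n = 3 empty vector libraries). FASTK, at 65.4 ± 3.1, lay between them, while FASTKD3 and MTPAP were lowest at 7.47 ± 1.07 and 7.19 ± 0.47. Exons of SLIRP overlap C14orf178 on the same strand and SNW1 on the opposite strand, so the level of SLIRP is uncertain. In transcription the order was TFAM (27.1), POLRMT (25.4), MTERF3 (22.1), MTERF1 (9.44), TFB2M (9.34) and TEFM (8.37 CPM per kilobase), and libraries overlapped in 4 of 5 neighbouring pairs. POLG, at 31.2 ± 2.8, stood above TWNK, at 13.0 ± 0.7. Among the regulators PPRC1 (21.9) and GABPA (18.4) were close, NRF1 was at 6.64 and PPARGC1A was far lower at 0.877 ± 0.148 CPM per kilobase. These orders depend on the transcript chosen. The lengths used for TFAM (5414 bases) and MTPAP (5601), among others, lie far above the medians of their coding transcripts (973 and 816).

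**Figure D4:**
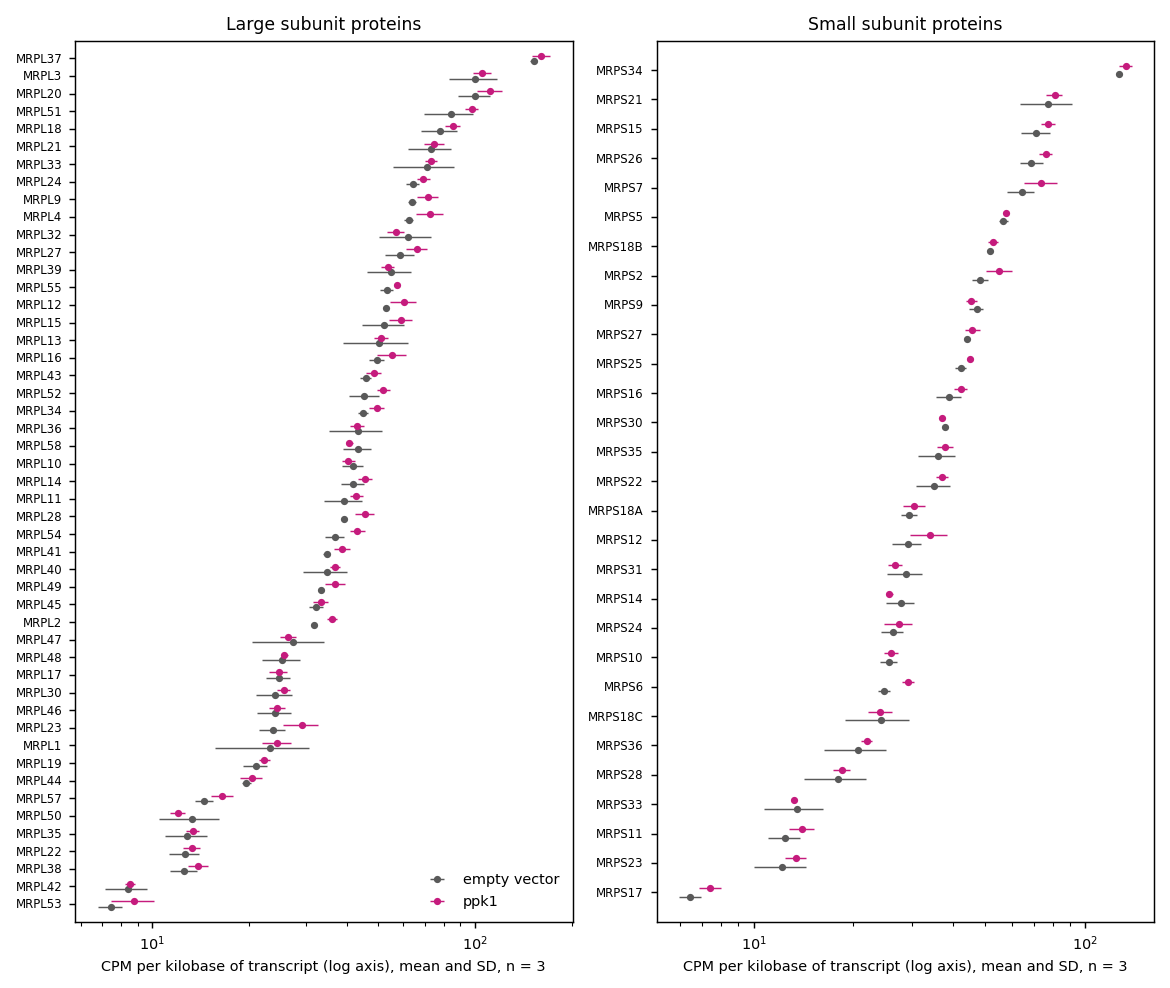
Level of each large subunit (left) and small subunit gene (right) in CPM per kilobase of transcript on a log axis, as mean and SD of 3 empty vector (grey) and 3 ppk1 libraries (magenta), ordered by the empty vector mean. Levels span 20.5-fold and 19.6-fold within the subunits (12.1-fold and 10.4-fold without genes that overlap or share sequence), while the groups of each gene lie close together.

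Other genes of mitochondrial gene expression were taken from lists of known components. Of 68 further nuclear genes, 5 rose and 2 fell (4.04% and 5.04% of all tested genes), with a median log2 fold change of 0.085. None of the 6 ribosomal protein genes without the MRP stem (median 0.098) and none of the 12 translation factors (median 0.058) was called. Of 22 assembly and ribosomal RNA modification genes, 3 rose and 0 fell (median 0.12). These were the helicase DDX28 (0.34, SE 0.085, adjusted p = 0.00661), the pseudouridine synthase TRUB2 (0.28, SE 0.076, adjusted p = 0.0133) and MPV17L2 (0.29, SE 0.082, adjusted p = 0.0161), each higher in all 3 pairs. DDX28 stood at 19.6, 19.2 and 21.2 CPM with the empty vector and at 21.9, 29.5 and 24.9 CPM with ppk1, without overlap.

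Among 12 genes of transfer RNA processing and modification, PUS1 rose (0.25, SE 0.083, adjusted p = 0.0444) and TRIT1, which modifies an adenosine beside the anticodon, fell. PUS1 was lower with ppk1 in pair B, with pair differences of -0.08, 0.33 and 0.51, and its groups overlapped. TRIT1 went from 47.4 ± 4.9 to 36.3 ± 1.4 CPM (SD, n = 3 libraries each). Its log2 fold change was -0.38 (SE 0.077, adjusted p = 0.000527), and it was the only gene of these nuclear lists called without the block (adjusted p = 0.0305). Among 10 DNA maintenance genes, the kinase TK2 rose (0.27, SE 0.084, adjusted p = 0.0339) and the ribonucleotide reductase subunit RRM2B fell (-0.26, SE 0.078, adjusted p = 0.0255). None of 6 other regulators was called. SP1, at -0.17, and ESRRA, at 0.21, both named after their values were seen, had adjusted p-values of 0.140 and 0.118.

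The 13 protein-coding transcripts that this machinery makes and reads all rose, with log2 fold changes between 0.28 and 0.62 and a median of 0.45. All but MT-ND6 were higher in all 3 pairs; its pair differences were -0.16, 0.18 and 0.93. The list's pair medians were 0.44 in B, 0.64 in C and 0.32 in D, against 0.12, 0.18 and -0.033 for the members. Without the block 9 of the 13 were called (adjusted p = 0.0223 to 0.326). MT-ND2 went from 1223 ± 96 to 1919 ± 502 CPM and MT-CYB from 2376 ± 255 to 3665 ± 867 CPM (SD, n = 3 libraries each). As the libraries were made from poly(A)-selected RNA, a difference in tail length of those transcripts that carry a tail would enter the counts. This was not tested.

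Base composition moved with the pair differences of the members. Across the 104 genes, Spearman's rho between a member's pair difference and the GC content of its principal transcript was -0.19 in pair B, 0.42 in pair C and 0.71 in pair D. Over all 19463 tested genes with a GC content these values were -0.12, 0.15 and 0.43. The points of a pair share the same libraries, so these are descriptions. The 45 members with a GC content of 50% or more had median differences of 0.094, 0.23 and 0.047 in B, C and D, and the 59 below 50% had 0.14, 0.13 and -0.11. In pair D, 32 of the 45 GC-rich members (71.1%) and 11 of the 59 others (18.6%) lay above 0, against 71.4% and 30.8% of all tested genes in the same classes.

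Several members described above sit at the ends of this scale. MRPL50 (35.0% GC), MRPS31 (39.7%) and MRPL1 (39.1%) were lower with ppk1 in pair D, and POLRMT (66.3%) and MRPL23 (66.3%) were higher. These examples were picked after their values were seen. In MRPL23, pair D had the smallest difference, 0.16 against 0.24 in B and 0.48 in C. LRPPRC (42.4%), at 0.041 in pair D, was among the 11 of 59 members below 50% GC that lay above 0. With GC and length offsets in the fit, 14 members were called higher (8.07% of all tested genes) and 1 lower (7.07%), of 2963 genes in all, while the member median stayed at 0.086. TWNK, MRPS6 and PPARGC1A were among them (adjusted p = 0.00604, 0.00807 and 0.0179), and MRPL23 was not (log2 fold change 0.20, adjusted p = 0.0687). Transcript GC content of the members had a median of 48.2%, against 49.01% for all tested genes. The part of base composition in the pair differences was not tested beyond these fits.

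**Figure D5:**
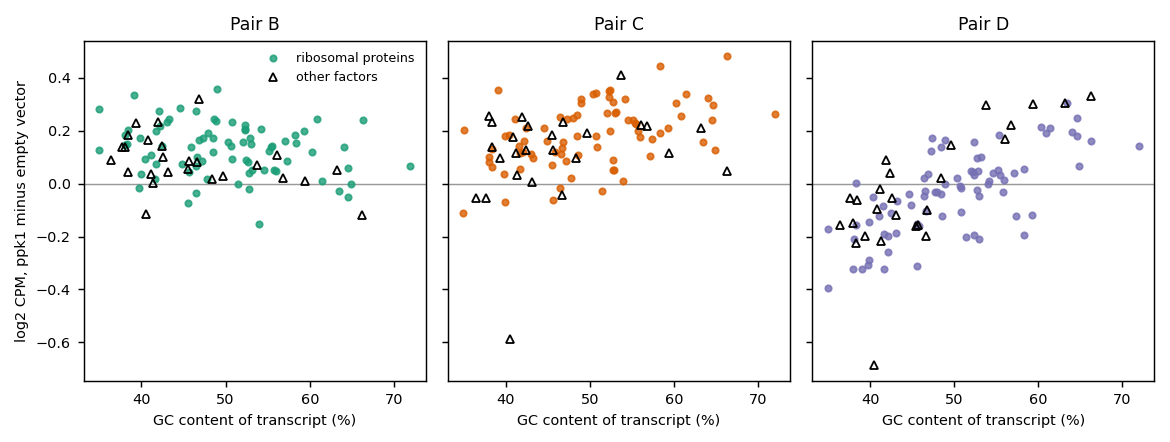
Difference of each member between the ppk1 and the empty vector library in pairs B, C and D (vertical axis, log2 CPM) against the GC content of its transcript (horizontal axis, %), with dots for ribosomal proteins and triangles for other factors. The slope is slightly downward in B (rho -0.19) and upward in C (0.42) and D (0.71), and members under 50% GC mostly lie below 0 in D only; PPARGC1A is the lowest triangle in C and D.

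The promoters of these genes are known for sites of NRF1 and of GABPA, which binds the ETS core. RefSeq windows (GRCh38.p14) covered 91 of the 104 members, and the 250 bases before the annotated start were searched on both strands. The ETS letters CCGGAAG stood in 30 of 91 windows (33.0%), against 11.8% of 15843 windows of protein-coding genes. The palindromic NRF1 core, spelled in capitals for POLRMT below, stood in 3 (3.30% against 1.48%). A looser form with any base at a central position, which includes the core, stood in 11 (12.1% against 7.65%). The YY1 letters AAGATGGC stood in 6 (6.59% against 1.39%). The median GC content of the windows was 61.2% for members and 62.4% for all.

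The 3 stretches with the full NRF1 core and that of TFAM, which holds the looser form on its other strand, show the element in genes of transcription, ribosomal RNA methylation and the ribosome. Capitals mark the match, and each stretch is written 5′ to 3′ on the strand of its gene.
POLRMT: ggcggcgcggGCGCATGCGCaggcgcgggc
TFB1M: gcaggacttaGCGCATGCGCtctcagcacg
MRPL17: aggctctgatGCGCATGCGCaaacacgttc
TFAM: acgctctcccGCGCCTGCGCcaattccgcc

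They lie at chr19:633542-633571 (minus strand), chr6:155314597-155314626 (minus), chr11:6683402-6683431 (minus) and chr10:58385337-58385366 (plus). The match begins 24 bases before the start of POLRMT, 132 before TFB1M, 81 before MRPL17 and 63 before TFAM. The log2 fold changes of POLRMT, TFB1M and TFAM are given above, and that of MRPL17 was 0.0024 (SE 0.075).

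Of 8 members with more than 1 ETS match, 4 are printed as examples of the letters in either orientation. The match nearest to the start is in capitals.
MRPL51: ggcaggcggaCCGGAAGcactgaggcg
MRPL20: aggggctgacCCGGAAGcgctcgtgac
MRPS34: cttccggtgaCTTCCGGccggaccgct
ELAC2: agaaaaacagCTTCCGGaaaaaattgc

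These lie at chr12:6493350-6493376, chr1:1407298-1407324, chr16:1773137-1773163 and chr17:13018205-13018231, all on the minus strand, with the match 104, 21, 19 and 194 bases before the start. The stretch of MRPS34 holds a further whole match in lower case at its left end.

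The differences between the groups were then set out for members with and without a match. The median log2 fold change was 0.082 in the 30 members with the ETS letters and 0.096 in the 61 without. It was 0.046 in the 11 with the looser NRF1 form and 0.092 in the 80 without, and 0.078 in the 6 with the YY1 letters against 0.088 in the 85 without. The windows of MRPS6 and PPARGC1A held none of the 4 patterns, and no window was at hand for TWNK and MRPL23.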

How the data were processed

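The authors deposited 1 table of raw read counts, 58051 Ensembl genes by 6 libraries, made from poly(A)-selected RNA with a directional kit, per the labels' protocols. The submitters' processing notes name bcl2fastq 2.20, Trimmomatic, STAR, HTSeq, edgeR, DESeq, Cufflinks and Cuffdiff without roles; the genome build, annotation and strand setting are not given in the sources used here. All columns matched a sample by name.

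Genes were filtered with filterByExpr (minimum count 10), scaled by TMM and fitted in edgeR 4.0.16 (R 4.3.3; glmQLFit, glmQLFTest). P-values were adjusted by Benjamini-Hochberg over 19574 genes, with calls below 0.05. Replicate letters entered as a block, since the design text states matched replicates. Deviations from the group mean correlated at 0.109 (B), 0.135 (C) and 0.0476 (D) for the same letter and at -0.120 to -0.00506 between letters. The biological coefficient of variation was 6.82%. CPM are counts over TMM-scaled totals; pair differences are log2 CPM with a prior count of 2. SE is the absolute log2 fold change over the square root of F.

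GENCODE release 29 held 98.9% of the identifiers and gave chromosome, principal transcript length, GC content and overlaps. Shared sequence is the percentage of 50-base stretches of a member's principal transcript that occur in any other gene. Exon overlap on the same strand, or more than 5% of sequence shared with genes anywhere, touched 26 members. A gene on the opposite strand overlapped 39 members. The counts of all these members are uncertain. Gene coordinates are not printed because the build is not known; promoter coordinates are those of RefSeq. Named genes are the called members, the 2 highest and 2 lowest of each role of 6 or more genes, the extremes per length, 16 factors and up to 4 called genes per other list; further members are named for a property stated beside them, after their values were seen. Members, lists and this rule were chosen with earlier results of these data known.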

Additional observations from a re-analysis of the deposited data

How the results depend on the processing

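The calls depended on the replicate block. The fit with no block called 470 genes against 1777, with 0 members higher and 0 lower, although 16 members were higher at an unadjusted p below 0.05. DESeq2 with the replicate letter called 757 genes and again 0 members higher and 0 lower, with 19 higher at an unadjusted p below 0.05. Upper-quartile scaling called 1355 genes, of which 31.1% were higher against 44.5%, and 0 members higher (2.16% of all tested genes; 20 at an unadjusted p below 0.05). GC and length offsets with the replicate block called 2963 genes (53.3% higher) and 14 members higher.

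Leaving out 1 pair at a time gave 406 (without C), 1803 (without D) and 2435 (without B) called genes. Members called higher numbered 0 without C (0.415% of all genes tested in that fit), 7 without B (6.5%) and 11 without D (3.37%). Members called lower numbered 0 without C (1.64%), 0 without D (5.69%) and 2 without B (6.03%). Without C no member was higher even at an unadjusted p below 0.05. The cause was not tested.

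For the 31 named members, 301 of 341 values under the 11 alternatives kept direction and call, and 22 lost a call. A further 9 gained one, and 9 changed sign without being called in either fit. Only the 4 called members had a call to lose, so all 22 losses were theirs. The other named members kept their call only by staying uncalled, so the 301 values do not measure how stable the calls were. The difference in the share of counts held by members was 0.0109 percentage points over all counts. It was 0.0192 with the mitochondrially encoded genes left out. In every setting it stayed below 0.0258 percentage points, the SD of the 3 pair differences over all counts. That SD includes pair D, so it does not measure the spread of the value without pair D (0.0257). The pairs behind that value gave 0.0236 in B and 0.0279 in C. With 3 libraries per group, differences under about 0.15 on the log2 scale were within the 95% interval of a typical member. That holds for the fit with the block, where the interval width came mostly from variability pooled over genes.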
